A study of Mus musculus with 2 samples.

Results

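The genes described are 10 of the 19550 in the count matrix: Spink5, Cst6, Serpinb3a, Serpinb3c, Serpinb2, Serpinb5, Slurp1, Slurp2, Chil4 and Gm94. Most of them were chosen by their UMI counts (unique molecules of RNA), selected on being far higher in adult than in E15 epithelium of the gastro-esophageal squamocolumnar junction (GE-SCJ), so that difference is how they were chosen and is not a finding. In that ranking, over genes with at least 100 UMIs, Chil4, Spink5, Serpinb3c and Slurp2 were ranks 1 to 4, Serpinb3a was 7, Gm94 was 9 and Cst6 was 10, at a log2 ratio of 8.04. Ranks 5, 6 and 8 were the keratins Krt6b, Krt1 and Krt14, which are not among the 10. The first gene below Cst6 was Ly6g6c, at 8.02, while Serpinb2, Slurp1 and Serpinb5 ranked 33, 63 and 128. The working name of the group, protease inhibitors of squamous epithelium, holds for some of these genes and not for all. Serpinb5 has a serpin fold without known protease inhibition, Slurp1 and Slurp2 are secreted signaling proteins, Chil4 is a chitinase-like lectin, and Gm94 has no assigned function here.

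Single cells came from wild type C57BL/6 mice at 4 stages: embryonic day 15 (E15, 6 mice), embryonic day 19 (E19, 2 mice), newborn pups at day 2 (2 mice) and adults of 8 weeks (3 mice), with no treatment or transgene. Esophagus, GE-SCJ and stomach were cut out separately, mice of one stage and region were combined under 1 oligonucleotide tag, and all tags were sequenced as 1 library of 7808 cells. Each region and stage is therefore 1 pooled sample with no replicate, no test between groups was possible, and every interval given here covers counting error only. The mouse GE-SCJ lies beside a forestomach that is also lined by squamous epithelium, and the labels do not say how much of it the dissected piece held. Squamous cells, as the authors labelled them, numbered 64, 123, 85 and 232 in the esophagus at E15, E19, pup and adult, and 47, 34, 46 and 87 in the GE-SCJ. The stomach gave 1, 4 and 7 squamous cells before the adult stage and no cell carrying an adult stomach tag was listed, so the stomach enters no comparison.

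Stratified squamous epithelium renews itself from a basal layer. Cells that leave it flatten, build a cornified envelope and are shed at the surface when proteases cut the desmosomes that hold them together. Kallikreins are the serine proteases best known for this cutting in skin, and LEKTI, the multi-domain Kazal-type inhibitor made from Spink5, holds them back. Cysteine proteases such as legumain and the cathepsins take part in building the envelope and are blocked by cystatin E/M, the product of Cst6. Clade B serpins are mostly intracellular inhibitors that trap their target protease after it cleaves them.

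The genes are grouped in the genome (positions in GRCm38, GENCODE annotation, all protein-coding genes). The 4 serpins lie within 674306 bases of chromosome 1, Serpinb5 at chr1:106861173-106883348 and Serpinb2 at chr1:107511423-107535478 on the plus strand, Serpinb3a at chr1:107045587-107052303 and Serpinb3c at chr1:107271201-107278371 on the minus strand. Slurp1 (chr15:74724318-74728034, minus strand) and Slurp2 (chr15:74742764-74746693, minus strand) lie within 22376 bases. Gm94 (chr18:43777196-43792878, minus strand) and Spink5 (chr18:43963235-44022501, plus strand) lie within 245306 bases. Chil4 is at chr3:106201490-106219507 and Cst6 at chr19:5344705-5349574, both on the minus strand.

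Serpinb3a and Serpinb3c are close copies, with 92.1% identity between their transcripts, and Chil4 has 94.4% identity with Chil3. Of the 441 stretches of 60 bases in the last 500 bases of the Chil4 transcript, where 3′ reads fall, 67 also occur in Chil3. For Serpinb3c, 11 of 441 occur in Serpinb3b, which also overlaps it on the same strand. For Serpinb3a, none occur in the other genes compared. The comparison was between the genes described and close relatives, and not with all transcripts. Reads that fit both copies may have been lost, so by this comparison the Chil4 and Serpinb3c levels are less certain than the others. The annotation also has Serpinb10 overlapping Serpinb2 on the same strand.

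Of the 2 close copies, Serpinb3a was lower in the adult GE-SCJ than in the esophagus and Serpinb3c was within 2-fold, so the 250 bases before their start sites are shown (RefSeq, GRCm38.p6, 5′ to 3′ along the gene). Promoters of 5 of the 10 genes were matched. The Serpinb3a sequence is chr1:107052304-107052553 and the Serpinb3c sequence is chr1:107278372-107278621, both on the minus strand. Of 216 aligned bases 203 were identical (94.0%), and capitals mark the 47 bases of each that differ or have no partner in the other.
Serpinb3a: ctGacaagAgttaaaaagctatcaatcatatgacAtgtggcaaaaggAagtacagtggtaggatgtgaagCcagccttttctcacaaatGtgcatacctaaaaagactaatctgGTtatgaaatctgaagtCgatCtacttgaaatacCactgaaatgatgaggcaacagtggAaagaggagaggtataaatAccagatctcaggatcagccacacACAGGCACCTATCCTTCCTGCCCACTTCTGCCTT
Serpinb3c: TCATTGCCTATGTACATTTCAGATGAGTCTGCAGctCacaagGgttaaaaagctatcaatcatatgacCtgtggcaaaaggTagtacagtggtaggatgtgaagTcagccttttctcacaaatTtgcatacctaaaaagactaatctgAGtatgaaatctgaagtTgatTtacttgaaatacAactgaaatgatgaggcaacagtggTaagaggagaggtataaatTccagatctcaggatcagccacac
The motif TATAAA, found on either strand in 12.4% of 32851 promoters of this length, begins 65 bases before the start of Serpinb3a and 31 before that of Serpinb3c. The copies are thus offset: the same stretch stands nearer to the annotated start in Serpinb3c.

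Chil4 is shown because its levels differed most between regions, and Serpinb2 because it holds an AP-1-like motif. The Chil4 sequence is chr3:106219480-106219729 on the minus strand, with TATAAA, 31 bases before the start, in capitals. The Serpinb2 sequence is chr1:107511173-107511422 on the plus strand, with the AP-1-like motif TGANTCA, 94 bases before the start, in capitals.
Chil4: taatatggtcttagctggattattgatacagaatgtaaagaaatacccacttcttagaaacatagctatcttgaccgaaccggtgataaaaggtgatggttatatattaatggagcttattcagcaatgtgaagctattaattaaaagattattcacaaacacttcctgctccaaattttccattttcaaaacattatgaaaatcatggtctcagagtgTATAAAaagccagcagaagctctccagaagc
Serpinb2: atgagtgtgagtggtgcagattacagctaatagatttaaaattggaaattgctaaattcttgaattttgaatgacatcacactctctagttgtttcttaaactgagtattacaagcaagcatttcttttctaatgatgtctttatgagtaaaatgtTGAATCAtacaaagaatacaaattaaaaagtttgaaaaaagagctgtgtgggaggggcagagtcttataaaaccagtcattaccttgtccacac
TGANTCA occurs in 6.75% of promoters and was found on either strand in Serpinb2 and, 140 bases before the start, in Serpinb5 (chr1:106860925-106861174), which also holds CACACCC (6.93% of promoters) 34 bases before the start. Serpinb2 has TATAAA at 29 bases before the start shown. RefSeq holds a second Serpinb2 start further downstream, from which TGANTCA lies 181 and TATAAA 116 bases away. None of the 3 motifs overlap one another in these sequences. A match describes letters only and says nothing of binding.

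Squamous cells held between 538863 and 3209407 UMIs in each group, with medians of 9198 to 15924 UMIs a cell, and levels are given as CPM, a gene's UMIs for every 1000000 UMIs of the group. The label was checked against lists of marker genes. Basal markers (Krt5, Krt14 and 4 others) summed to 3329 to 7291 CPM in every squamous group. The summed suprabasal markers (Krt13, Krt4 and 3 others) were 3232, 14826, 5607 and 49428 CPM in the esophagus from E15 to adult and 3220, 9585, 4339 and 30687 in the GE-SCJ. The summed cornified markers (5 of 6 in the matrix) were 276, 1031, 5653 and 23864 CPM in the esophagus and 165, 1023, 2646 and 24096 in the GE-SCJ, with Ivl and Sprr1b at 0 in the E15, E19 and pup esophagus. The members of that list did not follow one order. Loricrin (Lor), the main envelope protein, was at 8.85 to 19.9 CPM before the adult stage and at 4315 (esophagus) and 2036 (GE-SCJ) in the adult, whereas Cnfn was at 5602 CPM in pup and 4066 in adult esophagus. The mix of cell layers therefore differed between stages along with the genes described, and its part in the differences was not tested. Between the adult regions the cornified sums were close, but the list's median log2 ratio of GE-SCJ over esophagus was -0.87. Of its 4 genes with at least 100 UMIs, 2 were 2-fold lower in the GE-SCJ, Sprr1b (-1.62) and Lor (-1.08), and 0 were higher. Over all genes compared, 3.16% were lower and 1.37% higher. The summed 7 columnar markers were 956 to 3617 CPM, the 4 stromal markers 210 to 1499 and the 4 immune markers 2.04 to 50.9. The genes themselves were near background in the 354 immune cells (0.266 to 10.9 CPM) and the 4469 stromal cells (0.254 to 2.98 CPM).

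In the adult, Chil4 and Slurp2 were higher in squamous cells of the GE-SCJ than of the esophagus, Serpinb3a was lower, and the other 7 genes differed by less than 2-fold. Chil4 was at 60.8 CPM (52.5 to 69.9) in the esophagus and 4102 CPM (4002 to 4204) in the GE-SCJ, a log2 ratio of 6.07 (5.86 to 6.28). Slurp2 was at 93.8 against 264 CPM, a log2 ratio of 1.49 (1.27 to 1.71). Serpinb3a, at 1325 against 374 CPM, had a log2 ratio of -1.82 (-1.95 to -1.70). Past 2-fold, 2 of the 10 genes were higher against 1.37% of the 5259 genes with at least 100 UMIs over both groups, and 1 was lower against 3.16%. The median log2 ratio of the 10 was 0.64, beside -0.05 over all 5259. Part of this comparison rests on the adult GE-SCJ cells that were used to choose the genes, and the shares are a description.

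The 7 others were all higher in the GE-SCJ, by log2 ratios from 0.21 to 0.78. Slurp1 had 0.78 (0.64 to 0.92), Serpinb2 0.68 (0.46 to 0.89), Cst6 0.67 (0.53 to 0.81) and Spink5 0.61 (0.54 to 0.69). Gm94 had 0.55 (0.48 to 0.61), Serpinb5 0.29 (0.16 to 0.42) and Serpinb3c 0.21 (0.04 to 0.38). These intervals take no account of differences between mice, which pooling hides. For 4 of the 7 genes another set of cells turned the sign: Slurp1 was at -0.13 without the 3 cells of each region with most of it, Spink5 at -0.23 without the Krt1-rich cells described next, Serpinb3c at -1.47 without the Lor-rich cells described further on, and Serpinb3c and Serpinb5 at -0.091 and -0.0089 with columnar cells joined.

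**Figure D1:**
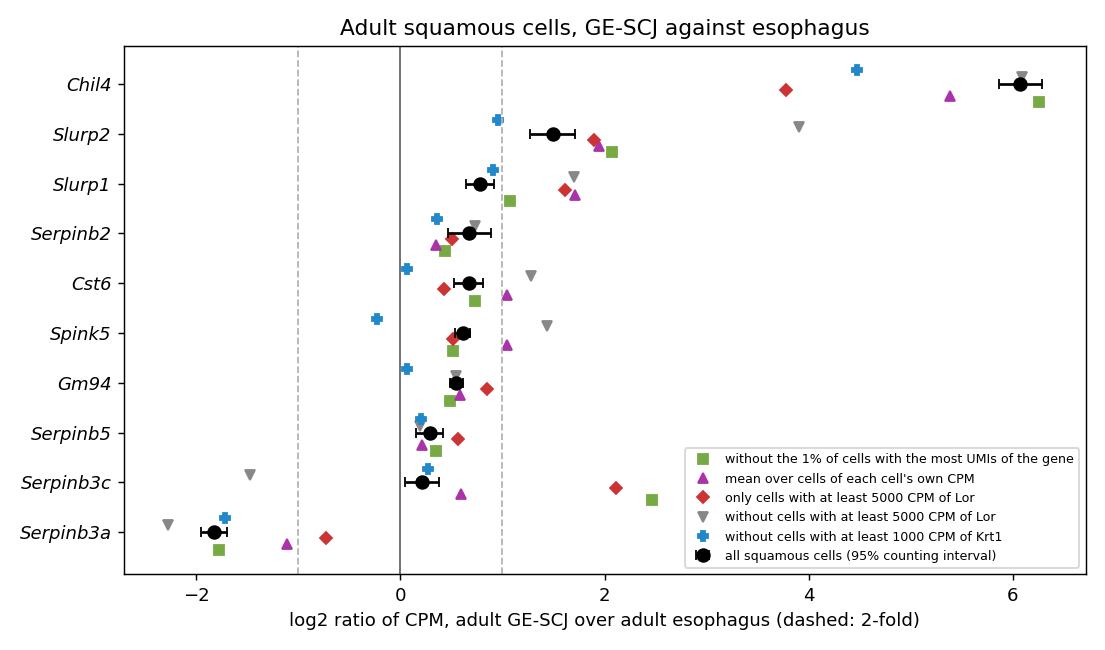
Log2 ratio of CPM in adult squamous cells, GE-SCJ over esophagus, for each gene. Black points are all squamous cells with their 95% counting intervals, the colored symbols are the same ratio computed over other sets of cells or as a mean over cells, and dashed lines mark 2-fold. Chil4 lies beyond 2-fold on the right and Serpinb3a to the left of 0 under every symbol drawn, while Spink5, Serpinb3c and others cross a line with the cells that are counted.

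Keratins of the adult squamous cells differed between the regions too. Krt1 and Krt10, a keratin pair of cornifying epidermis, were at 1966 and 2259 CPM in the GE-SCJ against 16.5 and 38.3 in the esophagus, and Krt6b was at 490 against 6.23. Krt13 and Krt4, a suprabasal keratin pair, were lower in the GE-SCJ (17857 against 27514 and 9967 against 18750 CPM). Basal Krt14 was higher (1477 against 642 CPM) and basal Krt15 was lower (985 against 1578 CPM). The 6 basal markers had a median log2 ratio of -0.17. Krt6a, another suprabasal marker, was higher (385 against 92.2 CPM).

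The Krt1 limit below was set after the values were seen and cuts a range rather than naming a cell type. At least 1000 CPM of Krt1 was found in 21 of 87 adult GE-SCJ cells (24.1%, exact interval 15.6 to 34.5) and in 0 of 232 adult esophageal cells, which allows a share of up to 1.29% taking 3 cells of the total (exact upper bound 1.58%). Between 500 and 2000 CPM lay 13 of the GE-SCJ cells, so the limit does not fall in a gap. These 21 cells held 31.4% of the UMIs of the group. They held 61.7% of the Spink5, 55.1% of the Cst6, 52.7% of the Slurp2, 50.9% of the Gm94, 45.2% of the Serpinb2 and 35.5% of the Serpinb5 UMIs, but only 28.5% of Serpinb3c, 26.2% of Serpinb3a and 25.2% of Slurp1, which is below their share of all UMIs. Of the Chil4 UMIs they held 77.3%, a value set by 1 cell close to the limit, with 1132 CPM of Krt1 and 2646 of the 6368 Chil4 UMIs. Counted with the other cells, that cell would leave 35.8% of the Chil4 UMIs in the Krt1-rich cells. Chil4 was at 10093 CPM in the 21 cells, or 5369 without that cell, and at 1356 in the other 66, against 60.8 in the esophagus. Over single GE-SCJ cells thinned to 5000 UMIs, r between Chil4 and Krt1 was 0.15. Over adult esophageal cells, where Krt1 was at 16.5 CPM, it was 0.45. Shares of other genes in the 21 cells also rested in part on 1 cell of 74388 UMIs, with 1095 of Krt1. That cell held 708 of their 1630 Spink5, 106 of their 216 Slurp2, 121 of their 399 Cst6 and 479 of their 1709 Gm94 UMIs. Another of the 21, of 29183 UMIs and also rich in Lor, held 74 of the Slurp2 UMIs.

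Without the Krt1-rich cells several of the regional differences were smaller. The log2 ratio of Spink5 was then -0.23, with 949 CPM in the remaining GE-SCJ cells against 1112 in the esophagus. Those of Gm94 and Cst6 were 0.07 and 0.06, that of Slurp2 was 0.96, within 2-fold, and that of Chil4 was 4.47, which leaves out the cell with 2646 of its UMIs. The values of Spink5, Gm94, Cst6 and Slurp2 leave out the cell of 74388 UMIs described above, whose part was not tested. Slurp1 (0.91), Serpinb3c (0.27) and Serpinb3a (-1.72) had ratios near those over all cells. Whether the Krt1-rich cells came from the forestomach lining was not tested.

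Spink5 is described first among the protease inhibitors, since LEKTI is the inhibitor with the best known targets. It was at 20.4, 47.4, 17.5 and 1112 CPM in the esophagus at E15, E19, pup and adult, and at 2.21, 53.8, 148 and 1701 in the GE-SCJ. The adult was the highest stage in both regions, by a log2 ratio over the next highest of 4.54 (4.22 to 4.87, over E19) in the esophagus and 3.51 (3.22 to 3.81, over pup) in the GE-SCJ. The pup GE-SCJ stood above the pup esophagus, but 52 of its 99 UMIs came from 1 cell.

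Cst6 was at 1.02, 20.5, 27.8 and 293 CPM in the esophagus and 1.11, 13, 17.9 and 466 in the GE-SCJ. E15 was at the level of 1 UMI in each region, and E19 and pup lay between it and the adult. The log2 ratio of adult over pup was 3.35 (2.81 to 3.95) in the esophagus and 4.59 (3.81 to 5.5) in the GE-SCJ.

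The serpins Serpinb3a and Serpinb3c are mouse relatives of the human squamous cell carcinoma antigens. Serpinb3a was at 8.14, 38.0, 2.06 and 1325 CPM in the esophagus and 0, 3.71, 1.49 and 374 in the GE-SCJ. Serpinb3c was at 0, 0, 0 and 258 CPM in the esophagus and 0, 0, 1.49 and 298 in the GE-SCJ. Both were near 0 before the adult in both regions, with a small E19 level of Serpinb3a in the esophagus alone (65 UMIs). Adult Serpinb3c was at least 84.5-fold, 147-fold and 83.6-fold higher than E15, E19 and pup in the esophagus, taking 3 UMIs for a group at 0. The third copy, Serpinb3b, had 112 UMIs (34.9 CPM) in the adult esophagus and 58 (37.4 CPM) in the adult GE-SCJ, and 0 at the earlier stages.

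Serpinb2, plasminogen activator inhibitor 2, was at 4.07, 5.27, 6.17 and 131 CPM in the esophagus and 3.32, 5.57, 29.9 and 209 in the GE-SCJ. The first 3 esophageal groups held 4 to 9 UMIs each and did not separate from one another, and immune cells had 3.45 CPM. In the GE-SCJ the pup lay between the embryos and the adult, with a log2 ratio of adult over pup of 2.74 (2.11 to 3.46), below 8-fold.

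Serpinb5, maspin, stood apart from the other 9 genes because it was well detected at every stage. It was at 102, 183, 66.8 and 392 CPM in the esophagus and 99.5, 121, 148 and 479 in the GE-SCJ. Its log2 ratios of adult over earlier stages were 1.93, 1.10 and 2.53 in the esophagus, beside 2.25, 1.97 and 1.68 in the GE-SCJ. It did not pass 8-fold in any of the 6 comparisons.

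Slurp1 and Slurp2 encode secreted proteins of the Ly6/uPAR family that act on nicotinic acetylcholine receptors of keratinocytes. Slurp1 was at 11.2, 26.9, 1.03 and 294 CPM in the esophagus and 15.5, 27.8, 10.5 and 504 in the GE-SCJ. Slurp2 was at 1.02, 0, 0 and 93.8 CPM in the esophagus and at 0, 0, 0 and 264 in the GE-SCJ. Slurp1 was thus measurable before birth in both regions, whereas Slurp2 had 1 UMI in the 6 groups before the adult together. Adult Slurp2 was at least 79.6-fold, 47.4-fold and 59.0-fold higher than the 3 earlier GE-SCJ stages. The receptor subunits and protease-activated receptors on the list of targets had too few UMIs to compare: 9 of 12 were in the matrix and 0 reached 100 UMIs over both adult groups.

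Chil4, or Ym2, was the only gene of the 10 with a higher level before birth than in the adult in one region. It was at 271, 466, 5.14 and 60.8 CPM in the esophagus and 2.21, 0, 0 and 4102 in the GE-SCJ. The adult esophagus was thus below E15 and E19, with log2 ratios of -2.15 (-2.43 to -1.88) and -2.93 (-3.17 to -2.71). The adult GE-SCJ was at least 737-fold and 916-fold above E19 and pup, which had 0 UMIs, and its log2 ratio over E15, with 2 UMIs, was 10.27 (8.72 to 12.55).

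The prenatal Chil4 of the esophagus lay in very few cells. At E15, 3 of 64 cells held 153, 92 and 17 of the 266 UMIs, and without them the level was 4.24 CPM. The cell with 153 also held 15 of the 20 Spink5 and 39 of the 114 Krt14 UMIs of the E15 group. The cell with 92 had the highest Krt1 level of that group, 893 CPM. The reason was not tested. At E19, 1 of 123 cells held 792 of the 796 UMIs and 74 of the 84 UMIs of Gm94, and without it Chil4 was at 2.40 CPM. The sign of the Chil4 ratios in the esophagus therefore rests on those cells: leaving out the 3 cells with most Chil4 in each group gave 2.63 for adult over E15 and 4.17 for adult over E19.

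Gm94, a gene beside the Spink genes with no function assigned here, was at 8.14, 49.1, 4.11 and 1479 CPM in the esophagus and 11.1, 44.5, 134 and 2162 in the GE-SCJ. The adult was the highest stage in both regions. Most of the E19 level lay in 1 cell in each region, with 74 of the 84 UMIs of E19 esophagus and 20 of the 24 of E19 GE-SCJ. Without the top cell of each group, E19 was at 6.00 and 7.70 CPM and E15 at 5.10 and 2.29 CPM. Of the 90 pup GE-SCJ UMIs, 81 lay in the 4 of 46 cells with at least 1000 CPM of Krt1, as did 72 of 99 for Spink5 and 10 of 12 for Cst6.

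**Figure D2:**
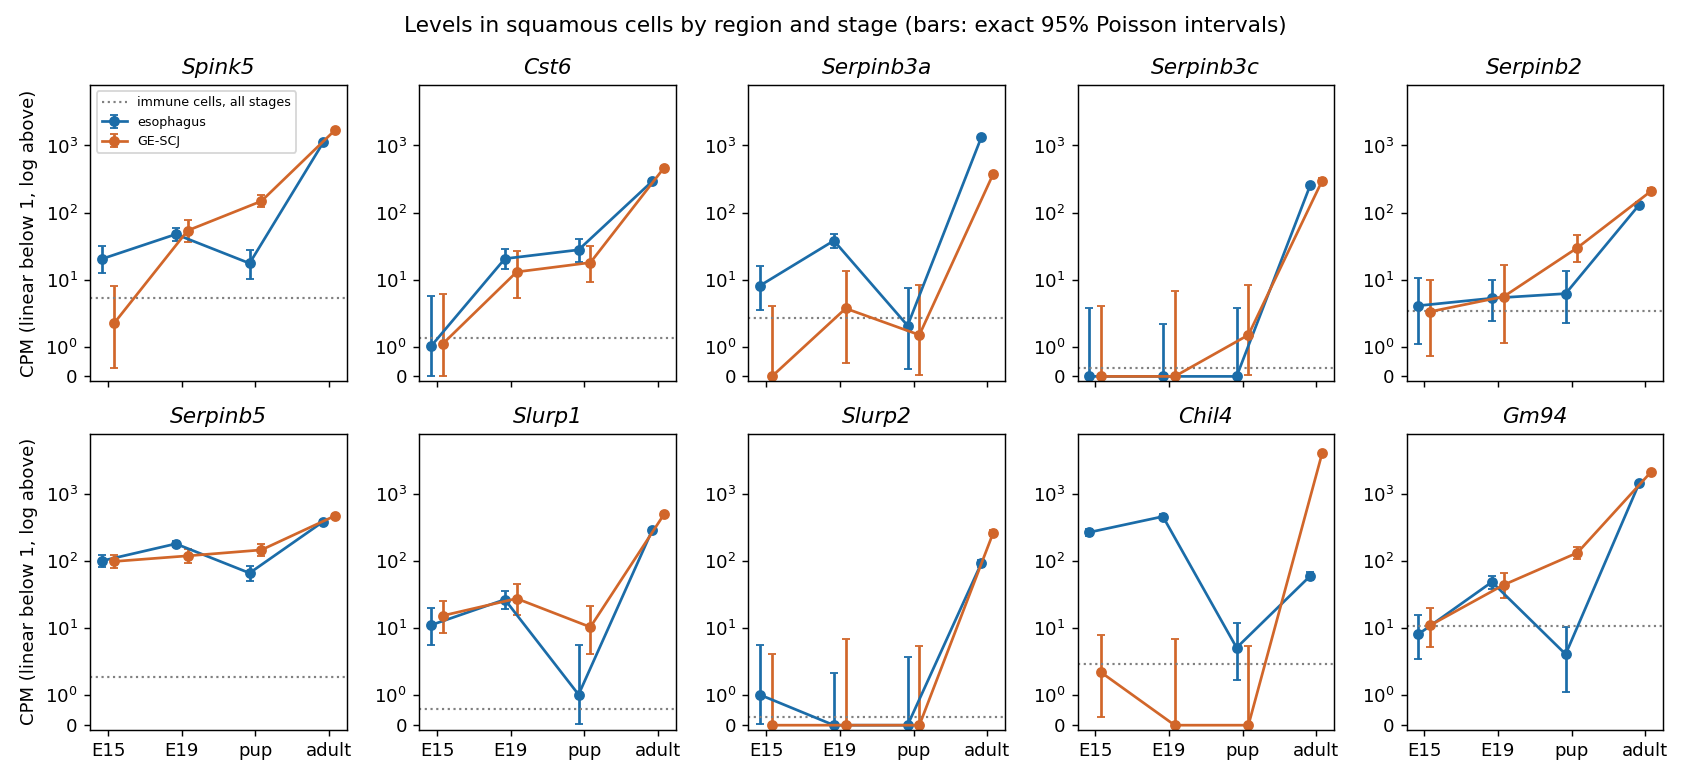
CPM of each gene in squamous cells by stage (E15, E19, pup and adult), 1 panel a gene, on an axis that is linear below 1 and logarithmic above. Blue is the esophagus and orange the GE-SCJ, bars are exact 95% Poisson intervals, and the dotted line is the level in immune cells of all stages. All panels except esophageal Chil4 have their highest point at the adult stage, and Serpinb5 alone lies between 66.8 and 183 CPM before it.

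Counted over the group, 8, 8 and 9 of the 10 genes were at least 8-fold higher in the adult than in E15, E19 and pup esophagus, and 9, 9 and 8 in the GE-SCJ. The same held for 3.95%, 2.32% and 3.94% of genes with 100 UMIs in the esophagus, and for 3.8%, 3.04% and 2.42% in the GE-SCJ. None of the 10 was 8-fold lower, against 0.982%, 0.942% and 2.31% of genes in the esophagus and 1.25%, 1.31% and 0.366% in the GE-SCJ. The median log2 ratios of the 10, with genes at 0 set to their bound, were 5.62, 4.51 and 5.42 in the esophagus, then 6.65, 5.26 and 5.0 in the GE-SCJ, beside all-gene medians between -0.38 and 0.29. The GE-SCJ counts repeat the choice of the genes, and the values of both regions were known when they were chosen. Leaving out squamous cells with 3 or more UMIs of stromal, immune and endothelial markers kept 122 of 232 adult esophageal and 39 of 87 adult GE-SCJ cells. These were shallower, with medians of 6118.5 and 6343 UMIs against 9974 and 14303 over all cells. The counts were then 3, 2 and 3 in each region, where a gene under 100 UMIs in the kept cells does not count. The kept adult cells held few or no UMIs of Slurp2 in either region and of Slurp1 in the esophagus. No all-gene share was computed under this rule. A limit of 1000 CPM of the same markers kept 213 and 87 of the adult cells, with medians of 10445 and 14303 UMIs. The part of those markers and of depth in the result was not tested. In a total of RNA per group, more cells with a gene and more RNA of it per cell cannot be told apart, so the cells were examined next.

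The share of adult squamous cells with a UMI ranged widely among the genes. Serpinb5 had a UMI in 72.8% of esophageal and 80.5% of GE-SCJ cells, Gm94 in 65.9% and 69.0%, and Serpinb2 in 51.3% and 63.2%. Serpinb3c was at the other end, with 5.17% and 8.05%, and Slurp2 (8.62% and 13.8%) and Slurp1 (9.48% and 21.8%) were close to it. In between were Cst6 (24.6% and 43.7%), Serpinb3a (22.4% and 28.7%), Chil4 and Spink5, the last 2 with the widest gaps between regions. After each cell was thinned to 5000 UMIs, which left 171 and 67 cells and left out 61 and 20, Spink5 was found in 32.7% (25.8 to 40.3) of esophageal and 62.7% (50.01 to 74.2) of GE-SCJ cells, against 31.9% and 64.4% before. Chil4 was found in 10.5% (6.36 to 16.1) and 37.3% (25.8 to 49.99), against 11.2% and 35.6% before. Thinned immune cells, of which 253 were left, had 0% to 2.37% for these genes. Serpinb5 and Gm94 were found in like shares of both regions after thinning (76.0% and 74.6%, and 72.5% and 73.1%).

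Most of the UMIs of the less widespread genes came from a handful of cells. Of the 232 esophageal and 87 GE-SCJ adult cells, 50% of the UMIs lay in 2 and 1 cells for Serpinb3c, 3 and 2 for Slurp1, 3 and 3 for Slurp2, 4 and 2 for Chil4, and 6 and 3 for Serpinb3a. For Serpinb5 it took 22 and 13 cells and for Gm94 18 and 8. In the GE-SCJ, 2 cells held 2646 and 1262 of the 6368 Chil4 UMIs. Without the 3 cells of each region with the most Chil4, the level was 1458 CPM against 32.5.

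**Figure D3:**
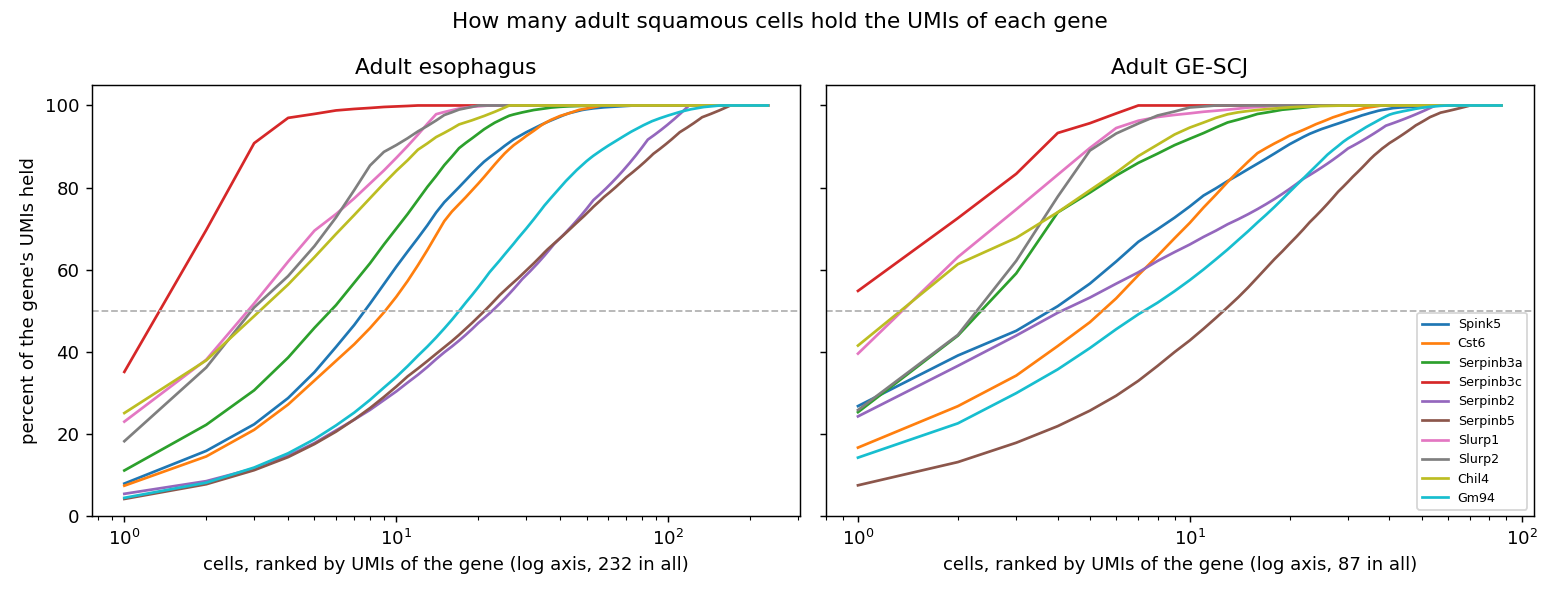
Cumulative percent of each gene's UMIs against the number of adult squamous cells, taken from the cell with the most UMIs of that gene downward (logarithmic axis), for the esophagus (232 cells) and the GE-SCJ (87 cells). The dashed line at 50 is reached after 1 or 2 cells for Serpinb3c and after 13 or 22 for Serpinb5.

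Slurp1, Slurp2 and Serpinb3a had most of their UMIs in cells rich in loricrin in both regions. Spink5 and Cst6 did so in the esophagus alone, and Serpinb3c in the GE-SCJ alone. The limit of 5000 CPM of Lor was set after the values were seen and cuts a range: 15 of 232 esophageal cells (6.47%) and 5 of 87 GE-SCJ cells (5.75%) passed it, with 6 and 2 cells within a factor of 2 of it. These cells were deep, with medians of 38127 and 29183 UMIs against 9231 and 13524 in the others, and held 17.7% and 8.99% of the UMIs of their groups. They held 94.0% and 63.2% of the Slurp2 UMIs, 92.3% and 83.7% of the Slurp1 UMIs, and 69.2% and 75.2% of the Serpinb3a UMIs. Spink5 had 64.6% and 30.7% of its UMIs in them, Cst6 54.7% and 23.5%, and Serpinb3c 42.4% and 80.3%. These shares were all above the shares of all UMIs.

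The level of Slurp1 was 1531 CPM in Lor-rich and 27.6 in other esophageal cells, and 4694 and 90.6 in the GE-SCJ. Slurp2 was at 499 and 6.81 CPM, and 1856 and 107. In the GE-SCJ, 106 of the 151 Slurp2 UMIs outside the Lor-rich cells came from 1 cell of 74388 UMIs. Serpinb3a was at 5182 and 497 CPM, and 3124 and 102. In all 3 genes the Lor-rich cells were higher in both regions. Spink5 had the same order, at 4063 and 478 CPM in the esophagus and 5804 and 1295 in the GE-SCJ, and so had Cst6, at 907 and 161 and at 1218 and 392.

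Serpinb5 had the opposite order. Serpinb5 was at 173 CPM in Lor-rich and 439 in other esophageal cells, and at 251 and 501 in the GE-SCJ. Chil4 was at 573 and 4450 CPM in the GE-SCJ, the opposite order again, while in the esophagus it was at 40.5 (25.7 to 60.8) and 65.1 (55.7 to 75.6), with overlapping intervals. Gm94 lay between, at 1859 and 1398 and at 3354 and 2044 CPM.

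The regional order of Serpinb3c depended on a few cells on either side of this limit. It was at 618 CPM in Lor-rich and 181 in other esophageal cells, and at 2666 and 64.4 in the GE-SCJ. Its log2 ratio of GE-SCJ over esophagus was 2.11 within the Lor-rich cells and -1.47 without them. That of Serpinb3a was -0.73, within 2-fold, among the Lor-rich cells and -2.28 without them. Without the Lor-rich cells, 3 genes that were within 2-fold over all cells passed it upward, Spink5 (1.44), Cst6 (1.28) and Slurp1 (1.70). Serpinb3c passed it downward. In the esophagus 286 and 175 of the 828 Serpinb3c UMIs came from 2 cells below the limit, with 2387 and 4004 CPM of Lor. Without them the other cells below it were at 6.29 CPM. In the GE-SCJ 82 of the 91 UMIs below the limit came from 1 cell, and without it the other cells were at 6.72 CPM. The value of -1.47 thus rests on 3 cells. Above the limit, 254 of the 463 GE-SCJ UMIs came from 1 cell.

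**Figure D4:**
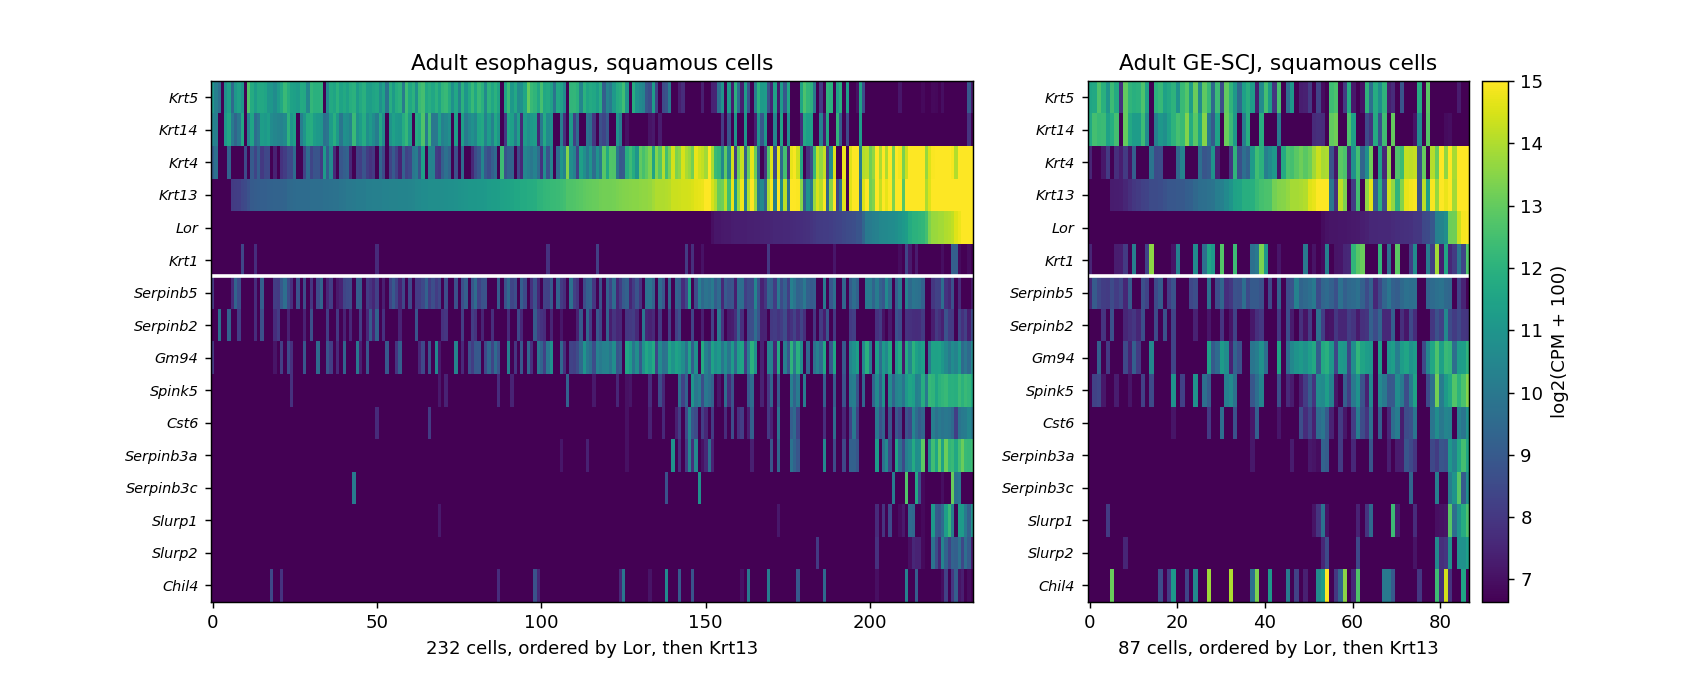
Heat maps of log2(CPM + 100) in single adult squamous cells of the esophagus and the GE-SCJ, with cells in columns ordered by Lor and then Krt13. The 6 rows above the white line are the keratins Krt5, Krt14, Krt4, Krt13 and Krt1 and Lor, and the 10 rows below are the genes described. Slurp1, Slurp2 and Serpinb3a are bright at the Lor-rich end, Spink5 and Cst6 extend further from it, and Gm94 and Serpinb5 are spread over most cells.

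Across cells thinned to 5000 UMIs (171 in the esophagus and 67 in the GE-SCJ), the same grouping was seen as Pearson correlations of log2(CPM + 100). The cells of a region share 1 library and 1 pool of mice, so these values are descriptions. With Lor, Serpinb3a had r of 0.88 and 0.87, Slurp1 0.81 and 0.69, Spink5 0.82 and 0.59, Slurp2 0.71 and 0.77 and Cst6 0.75 and 0.51, in the esophagus and the GE-SCJ. Gm94 followed Krt13, a keratin of all suprabasal layers, with r of 0.76 in each region. Serpinb5 and Chil4 had values from -0.12 to 0.16 with Lor. Spink5 and Gm94 ran against basal Krt5, with r of -0.76 and -0.40 for Spink5 and -0.66 and -0.65 for Gm94.

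**Figure D5:**
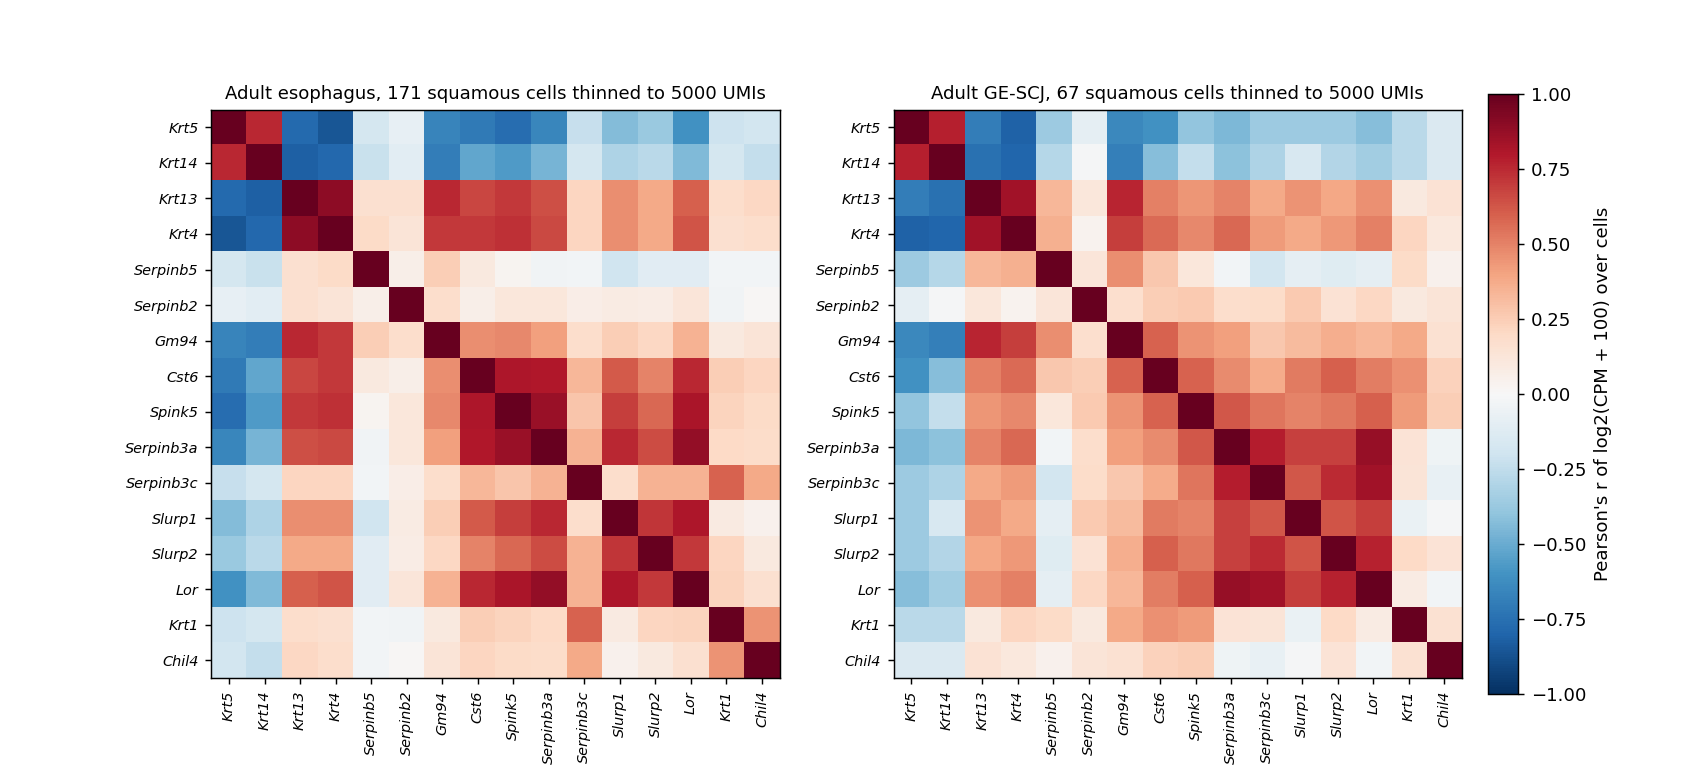
Pearson r between the 10 genes and 6 marker genes over adult squamous cells thinned to 5000 UMIs, with 171 cells of the esophagus and 67 of the GE-SCJ, as color from -1 to 1. Spink5, Serpinb3a, Cst6, Slurp1 and Slurp2 form a block with Lor in both regions, for example r of 0.86 and 0.62 between Spink5 and Serpinb3a and 0.72 and 0.63 between Slurp1 and Slurp2.

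Among the 85 pup esophageal cells, 29 carried a second squamous label given by the authors. Those 29 held 26 of the 27 Cst6 UMIs of the group, or 64.7 CPM against 1.75 in the 56 others. For Serpinb5 they held 1 of 65 UMIs, or 2.49 CPM against 112. The pair thus had opposite patterns between the labels.

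Kallikreins, the family that LEKTI restrains, were lower in the adult GE-SCJ than in the esophagus where they differed past 2-fold. Of 7 kallikreins with at least 100 UMIs over both adult groups (10 in the list), 0 were 2-fold higher and 4 were 2-fold lower in the GE-SCJ, with a median log2 ratio of -2.07. Over all 5259 genes 1.37% were higher and 3.16% lower. Lor-rich cells held 17.7% of the esophageal and 8.99% of the GE-SCJ UMIs, and their part in the kallikrein difference was not tested. Klk14 was at 102 CPM in the GE-SCJ and 609 in the esophagus, a log2 ratio of -2.57, and Klk12 had -2.11. Klk7 had 0 UMIs in the GE-SCJ and 100 in the esophagus. By stage, kallikreins were higher in the adult as the 10 genes were: 6 of 7, 5 of 7 and 6 of 7 were 8-fold above E15, E19 and pup in the esophagus, and 4, 3 and 2 of 5 in the GE-SCJ.

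Other inhibitors did not share one regional direction. Of 8 other clade B serpins that could be compared, 0 were higher and 1 was lower, Serpinb11 at a log2 ratio of -1.17, with a median of -0.18. Serpinb12 (-0.64, 911 against 1421 CPM) and Serpinb6a (-0.61) were also named by size. Of 12 genes on the list of other epithelial inhibitors 2 were higher, Wfdc21 (2.72) and Anxa1 (2.05), an annexin that is not a protease inhibitor. On that list 4 were lower, among them the secreted leukocyte protease inhibitor Slpi at 2434 against 9719 CPM (-2.0). By stage, 8-fold higher in the adult were 3 of 5, 2 of 6 and 3 of 6 clade B serpins in the esophagus and 2, 2 and 1 of 3 in the GE-SCJ, and 4 of 10, 2 of 11 and 2 of 11 epithelial inhibitors in the esophagus and 2, 1 and 1 of 8 in the GE-SCJ. Of the latter list 1 gene was 8-fold lower than in the pup esophagus, and 1 lower than at E19 and 1 than in the pup in the GE-SCJ. Slpi, of the same list, had adult over E19 log2 ratios of 8.59 in the esophagus and 8.04 in the GE-SCJ.

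The remaining families had few genes past the limit between regions. Of 7 other serine proteases 1 was lower, Tmprss11a (-1.54), and Prss27 (-0.23) and St14, matriptase (0.20), were within 2-fold. Of 8 cathepsins, transglutaminases and related enzymes 1 was lower, the transglutaminase Tgm3 (-1.83), while Ctsc (0.72) and Ctsz (0.59) were within. Of 7 Ly6/uPAR relatives of Slurp1 and Slurp2, 1 was higher, Psca at 998 against 66.4 CPM (3.91), with Ly6d at 0.90 and Lypd5 at -0.90. Of the chitinase family Chit1 alone could be compared, at 184 against 98.8 CPM (0.90, interval 0.66 to 1.13). It was higher in the GE-SCJ as Chil4 was, but within 2-fold. By stage, 8-fold higher in the adult were 4 of 7, 0 of 10 and 0 of 12 serine proteases in the esophagus, 5 being lower than in the pup, and 0 of 1, 1 and 2 in the GE-SCJ. For the list of cathepsins, transglutaminases and related enzymes the counts were 2 of 9, 9 and 8 in the esophagus and 2 of 7 at each GE-SCJ stage. The 2 above E15 in the esophagus were Tgm3 (log2 ratio 7.23) and Casp14 (240 UMIs against 0), and no cathepsin was among them. For the Ly6/uPAR list they were 4 of 9, 2 of 9 and 4 of 7 in the esophagus, with 1, 2 and 2 genes 8-fold lower, and 6 of 8, 2 of 8 and 2 of 7 in the GE-SCJ, with 1 lower than at E19. Psca was among the lower ones, at 66.4 CPM in adult against 29952 in pup esophagus, a log2 ratio of -8.81.

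Over 45 groups of at least 20 cells, by cell class, region and stage, the genes with the most similar levels were found by Pearson r of log2(CPM + 10) among 11672 genes. The groups share 1 library. Spink5 was nearest to Pinlyp (0.960), Ly6g6c (0.956) and Alox12b (0.937), and Pinlyp was also nearest to Gm94 (0.972), followed by Cyp4f39 (0.958) and Klk13 (0.957). Serpinb3a was nearest to Serpinb12 (0.967), Sprr1b (0.956) and Gsdma (0.956), and Serpinb3c to Dsc1 (0.980), Gsdma (0.977) and Lypd5 (0.970). The lists of the 2 copies had Gsdma in common.

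Several lists shared genes. Cst6 was nearest to Alox12b (0.945), Gjb2 (0.932) and Pinlyp (0.922), Serpinb2 to Klk13 (0.939), Pinlyp (0.928) and Cyp4f39 (0.926), Slurp1 to Sbsn (0.933), Cyp4f39 and Clic3 (0.912 each), and Slurp2 to Otop3 (0.951), Dsc1 (0.945) and Gsdma (0.943). Serpinb2 and Gm94 had the same 3 genes, Cst6 shared Alox12b and Pinlyp with Spink5, and Slurp2 shared Dsc1 and Gsdma with Serpinb3c. Serpinb5 was nearest to Dapl1 (0.966), Barx2 (0.965) and Trim29 (0.965), which no other gene of the 10 had on its list. Chil4 had the lowest values, with Gsdmc (0.819), Krt6b (0.813) and Nebl (0.779).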

How the data were processed

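RNA of single cells was captured with the 10x Genomics 3′ v3.1 and CellPlex kits. The authors aligned reads to mm10 with Cell Ranger 6.1.1, filtered cells on genes, UMIs and the mitochondrial percent (a percent column they deposited), and deposited whole UMI counts per gene and cell with their cell labels, taken as given. The deposited matrix held 7808 cells and 107865155 UMIs (519 to 79817 a cell). The study's design text gives 6, 2, 2 and 3 mice by stage, and its methods state that cells of 3 mice were combined.

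The 10 genes and the gene lists were chosen with earlier results of these data known. UMIs were summed by squamous label, region and stage and scaled to CPM, with exact 95% Poisson intervals. Ratios used 1 added UMI and an exact conditional interval. A group at 0 UMIs was set to 3 UMIs for a bound. Genes needed 100 UMIs over both groups, and the limits were 2-fold (region) and 8-fold (stage). Shares have Clopper-Pearson intervals. Intervals cover counting error only. From each list the 3 genes furthest from equal, and for each gene the 3 most similar, were named. No doublet caller was run here; cells with markers of other types were left out as alternatives instead. The scripts, tested on simulated data, ran under Python 3.11.15 with scipy 1.17.1 for intervals, biopython 1.88 for alignments, scikit-learn 1.9.0 for neighbours, numpy 2.4.6 and pandas 2.3.3.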

Additional observations from a re-analysis of the deposited data

Results flagged for a closer look

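Chil4 differed in direction between the regions. The log2 ratio of adult over E15 was -2.15 in the esophagus and 10.27 in the GE-SCJ, and that of adult over E19 was -2.93 in the esophagus. In the GE-SCJ E19 had 0 UMIs, so the adult was at least 737-fold higher there (the fitted 11.11 depends on the 1 UMI added and is no bound). The difference was not tested, since each region and stage is 1 pooled sample, and the prenatal esophageal UMIs lay in 4 cells for the most part (153, 92 and 17 UMIs at E15 and 792 at E19).

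The 7 squamous cells of the pup stomach, which enter no comparison, had levels of 9 of the genes above those of immune cells. Chil4 was at 72.4 CPM, Spink5 at 772, Serpinb3a at 314, Serpinb5 at 278, Serpinb2 at 109, Slurp2 at 157, Slurp1 at 422, Cst6 at 193 and Gm94 at 543. Of these UMIs 207 came from 1 cell of 30118 UMIs that also held 848 of Krt13 and 100 of Lor, and the 6 Chil4 UMIs came from another cell.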

How the results depend on the processing

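No paired analysis was possible because each region and stage is 1 pooled sample with no replicate number. Counts under the alternatives below are of the genes described only, with no share over all genes beside them. Whether all genes shift alike under these alternatives was not tested. The alternatives that left out the 3 cells with most of a gene, split cells by Lor or Krt1, or used 1000 CPM of other cell types' markers were added after seeing the data.

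Between regions, the 2 genes at least 2-fold higher in the adult GE-SCJ became 5 when cells were weighted equally (mean CPM over cells), 4 when the 1% of cells richest in a gene were left out, 5 without and 4 within the Lor-rich cells, and 1 without the Krt1-rich cells or at a 4-fold limit. The 1 lower gene became 2 without Lor-rich cells and 0 within them, at the 4-fold limit, and without squamous cells holding 3 or more UMIs of stromal, immune and endothelial markers.

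That last rule kept 16, 53, 51 and 122 esophageal and 18, 19, 20 and 39 GE-SCJ cells, and the adult cells kept were shallower (medians of 6118.5 and 6343 UMIs). Under it the genes at least 8-fold higher in the adult numbered 3, 2 and 3 in each region. Slurp2 (esophagus E15 -1.02 and pup -0.040, GE-SCJ -0.76, -0.57 and -0.78) and Slurp1 (esophagus -5.34, -5.02 and -2.04) changed sign. Slurp2 had 0 UMIs in pup esophagus and in the earlier GE-SCJ groups. Its negative values there come from the 1 UMI added and unequal group sizes, and show no fall in the adult. Against groups at 0 UMIs they also mean that the kept adult cells held few or no Slurp2 UMIs. For Slurp1 in the esophagus, -2.04 over pup means the same. The adult rise of Slurp2, and of Slurp1 in the esophagus, was thus not seen in the kept cells. The reason was not tested. Slurp2 in E15 esophagus and Slurp1 in pup esophagus had 1 UMI each.

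Chil4 adult over E19 in the esophagus became 3.77 without the top 1% of cells, 2.67 under the 3-UMI rule, 4.55 under the 1000 CPM rule and 4.17 without the top 3 cells, and over E15 2.63 without the top 3. Between regions, Serpinb3c (-0.091) and Serpinb5 (-0.0089) changed sign with columnar cells joined, Slurp1 (-0.13) without the top 3 cells, Serpinb3c (-1.47) without Lor-rich cells and Spink5 (-0.23) without Krt1-rich cells. The cause was not tested.

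Of the log2 ratios under all alternatives, 534 kept their value within counting error, 178 moved beyond it and 18 changed sign.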
